A study of Mus musculus with 16 samples.

Results

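The genes described here were 10 transcription factors of embryonic mesenchyme and of the cranial neural crest, namely Twist1, Twist2, Prrx1, Prrx2, Msx1, Msx2, Snai1, Snai2, Tfap2a and Alx4. They were chosen by name, with earlier results of these data known. All 10 were found among the 24982 genes of the count table and the 24951 genes of the TPM table. The data came from RNA-seq of 16 murine rhabdoid tumors, each from a different mouse. Every mouse was Smarcb1flox/flox;R26-CreERT2, on a mixed 129/SV and C57BL/6 background, and tamoxifen given during gestation activated the ubiquitous Cre, so that all groups shared the Smarcb1 deletion and no group held normal tissue. The 5 Shh tumors arose within the brain (intra-CNS), all after tamoxifen at embryonic day 6 (E6), at ages of 30 to 180 days. The 6 intracranial Myc tumors lay inside the skull but outside the brain (intracranial extra-CNS), and tamoxifen was given at E6 for 1 of them, at E7 for 1 and at E8 for 4, at ages of 52 to 170 days. The 5 extracranial Myc tumors were those of the back (tumor 1), jaw (tumors 2 and 5), nose (tumor 3) and mouth (tumor 4), from tamoxifen at E6 for the tumor of the back and at E8 for the other 4, at ages of 80 to 210 days. Groups followed the labelled site, and the study assigned the subgroups from expression of these and other tumors. The nose tumor is extracranial in the labels and intracranial in the mouse table of the study, and it was analysed as extracranial.

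The neural crest forms at the border of the neural plate, leaves the dorsal neural tube by an epithelial to mesenchymal transition (EMT) and, in the head, gives rise to much of the mesenchyme of the face and skull. Tfap2a and the Msx genes act early at the neural plate border, the Snail and Twist genes repress epithelial genes and promote the mesenchymal state, and the Prrx and Alx genes pattern the mesenchyme of the face, skull and limbs. The mesenchyme of the trunk and limbs, which does not come from the crest, uses several of the same factors.

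Of the 10 factors, only Snai1 differed between Shh and Myc tumors in the test used here, the quasi-likelihood test of edgeR, with p-values adjusted by the method of Benjamini and Hochberg over every gene tested (adjusted p under 0.05 and a change of more than 1 on the log2 scale). Snai1 was lower in Shh tumors, by 3.31 ± 0.58 (SE) on the log2 scale. The other 9 factors did not pass, so that 1 of 10 factors (10%) was called where 26% of all genes tested were. Levels of most of them spread widely within groups, though not in every group, as with Snai2 in intracranial Myc tumors. Between intracranial and extracranial Myc tumors 0 of 10 passed, in a comparison in which 1 of 21261 genes did (0.00470%). Without 3 tumors with high levels of markers of other tissues, 3 of 10 factors passed between Shh and Myc tumors, against 26.7% of genes. When 3 more tumors, high in pituitary or macrophage markers, were left out as well, 2 of 10 passed, against 23.4% of genes.

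All 6 of these tumors were chosen after the data were seen, first the 3 that follow. Intracranial Myc tumor 6 had a summed level of 204886 TPM (transcript abundance scaled to library and gene length) for 6 choroid plexus markers, of which Ttr, the thyroid hormone carrier made by that tissue, gave 199516, against at most 63.4 TPM in the other intracranial Myc tumors. Extracranial Myc tumor 5 (jaw) had 2355 TPM for 12 markers of oral or skin epithelium, against at most 40.3 TPM in any other tumor. Shh tumor 1 had 6396 TPM for 9 oligodendrocyte markers, against at most 151 TPM elsewhere. It also had 4665 TPM for the choroid plexus markers, against at most 8.16 TPM in the other Shh tumors and 133 TPM in extracranial Myc tumors. The other 3 tumors also stood apart, and were kept where only 3 were left out. Sums over 8 pituitary markers were 425 and 344 TPM in intracranial Myc tumors 1 and 5 and 93.6 TPM in intracranial Myc tumor 6, against at most 16.8 TPM in the other 13 tumors, and macrophage markers were highest in the tumor of the back (15614 TPM). Smarcb1, the deleted gene, was also highest in Shh tumor 1 (58.1 TPM) and in intracranial Myc tumor 6 (43.7 TPM), with 3.99 to 26.1 TPM in the other 14 tumors. Total counts ranged from 17889968 to 110177889 per tumor, with a median of 33441126 in Shh tumors and 30258664 in Myc tumors. In these bulk samples, fewer cells of a type and less RNA per cell cannot be told apart.

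The sequences around the start sites of 3 factors are shown because the values below turn on them. Snai1 is the factor that differed, and Msx1 and Msx2 are the pair with the highest Pearson's r over all 16 tumors. Without intracranial Myc tumor 6, Twist1 with Snai1 was the higher pair. The sequences are those of RefSeq on build GRCm38.p6, from 250 bases before to 50 bases after the start, on the strand of the gene. Capitals mark the letters CANNTG, the E-box that Snail and Twist proteins can bind, and TAATTA, a core bound by homeodomains such as those of Msx, Prrx and Alx proteins. Both motifs read the same on either strand, and no marked motifs overlap.
Snai1, chr2:167537945-167538244, plus strand: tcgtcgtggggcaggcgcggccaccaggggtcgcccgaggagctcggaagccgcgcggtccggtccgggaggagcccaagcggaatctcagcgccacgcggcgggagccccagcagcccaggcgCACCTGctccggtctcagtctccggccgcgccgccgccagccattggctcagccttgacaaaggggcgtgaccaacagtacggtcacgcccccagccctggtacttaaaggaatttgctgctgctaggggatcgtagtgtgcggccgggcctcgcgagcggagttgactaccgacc
Msx1, chr5:37824536-37824835, minus strand: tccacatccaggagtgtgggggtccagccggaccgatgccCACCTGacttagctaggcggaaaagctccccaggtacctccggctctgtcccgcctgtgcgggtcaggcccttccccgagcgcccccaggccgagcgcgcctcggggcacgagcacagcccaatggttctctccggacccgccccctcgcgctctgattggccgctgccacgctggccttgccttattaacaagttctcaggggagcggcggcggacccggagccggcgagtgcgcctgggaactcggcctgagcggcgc
Msx2, chr13:53472731-53473030, minus strand: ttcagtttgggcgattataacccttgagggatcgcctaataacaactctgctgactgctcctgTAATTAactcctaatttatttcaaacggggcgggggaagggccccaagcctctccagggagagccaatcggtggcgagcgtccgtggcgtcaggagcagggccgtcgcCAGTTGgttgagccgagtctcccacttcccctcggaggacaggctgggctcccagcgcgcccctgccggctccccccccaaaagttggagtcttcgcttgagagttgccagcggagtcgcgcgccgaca

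The Snai1 and Msx1 windows each held 1 E-box, and in both it read CACCTG, a form that Snail proteins are known to bind strongly. Of 32851 mouse promoter windows of the same length, 72.3% held an E-box of any form. That form of the E-box, on either strand, was found in 20.2% of the windows, and the homeodomain core in 5.29%. Windows were found for 8 of the 10 factors, 9 windows in all since Tfap2a has 2 starts, and 3 of the 9 held an E-box. The homeodomain core was found in the windows of Msx2, Prrx1 and the upstream start of Tfap2a, each with 1 copy. A match of letters is a description of the window and not of a bound site.

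Snai1, at chr2:167538195-167542814 on the plus strand of GRCm38, encodes a zinc finger repressor of E-cadherin and other epithelial genes and is known as an inducer of EMT. Its levels in Shh tumors 1 to 5 were 1.84, 3.93, 2.0, 2.40 and 0.889 TPM. In intracranial Myc tumors they ran from 8.48 to 23.6 TPM with a median of 14.6 TPM. In extracranial Myc tumors 1 to 5 they were 5.64, 37.0, 2.44, 18.4 and 15.6 TPM. All 6 intracranial Myc tumors lay above every Shh tumor, as did 4 of the 5 extracranial Myc tumors, and the nose tumor fell inside the Shh range. The median of Shh tumors was 0.134 times that of Myc tumors. The counts behind these levels were low in Shh tumors, from 13 to 83 reads, and 54 to 1841 reads in Myc tumors.

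The log2 fold change of Snai1 in Shh against Myc tumors was -3.31 ± 0.58 (SE, adjusted p = 0.000489, edgeR's quasi-likelihood test, n = 5 and 11). This was 1 of 10 factors past the threshold, or 10%, against 26% of the 21854 genes tested (13.1% lower in Shh tumors). Against intracranial Myc tumors alone the change was -3.27 ± 0.62 (adjusted p = 0.0015 by edgeR), with 1 of 10 factors against 23.0% of genes. Against extracranial Myc tumors it was -3.36 ± 0.64 (adjusted p = 0.00138 by edgeR), with 1 of 10 factors against 25.0% of genes. These comparisons share the Shh tumors. Snai1 was the only factor whose levels did not overlap between Shh and intracranial Myc tumors, as was the case for 28.2% of 14803 genes whose mean count was 50 or more. Over all Myc tumors, and over extracranial Myc tumors, 0 of 10 factors were free of overlap with the Shh tumors, against 20.5% and 35.4% of those genes.

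Within the 11 tumors of mice with numbered names the Snai1 change was -3.20 ± 0.82 (adjusted p = 0.0132 by edgeR), and within the 5 tumors of mice named R26P it was -3.69 ± 0.79 (adjusted p = 0.183 by edgeR), a fit in which 0 of all genes passed. All Shh tumors and only 2 Myc tumors were induced at E6, and among these 7 tumors Snai1 differed by -2.99 ± 0.65 (adjusted p = 0.0206 by edgeR). Without the 3 tumors high in markers of other tissues it differed by -3.30 ± 0.70 (adjusted p = 0.00297 by edgeR). Markers of macrophages and microglia also moved with the subgroups, with sums over 9 genes of 900 to 1604 TPM in Shh tumors and 1975 to 15614 TPM in Myc tumors and none of the genes under 1 TPM in all tumors of a group. Sums over 13 fibroblast and meningeal markers were 340 to 1987 TPM in Shh tumors and 1242 to 8030 TPM in Myc tumors, with 1 of the 13 under 1 TPM throughout each group. Their part in the Snai1 result was not tested. Over the 11 Myc tumors, the r of log2 Snai1 with log2 marker sums was -0.17 for macrophages and -0.33 for fibroblasts. Over all 16 tumors, in which the subgroups differ in Snai1 and in both sums, it was 0.60 and 0.52. These r values are descriptions.

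**Figure D1:**
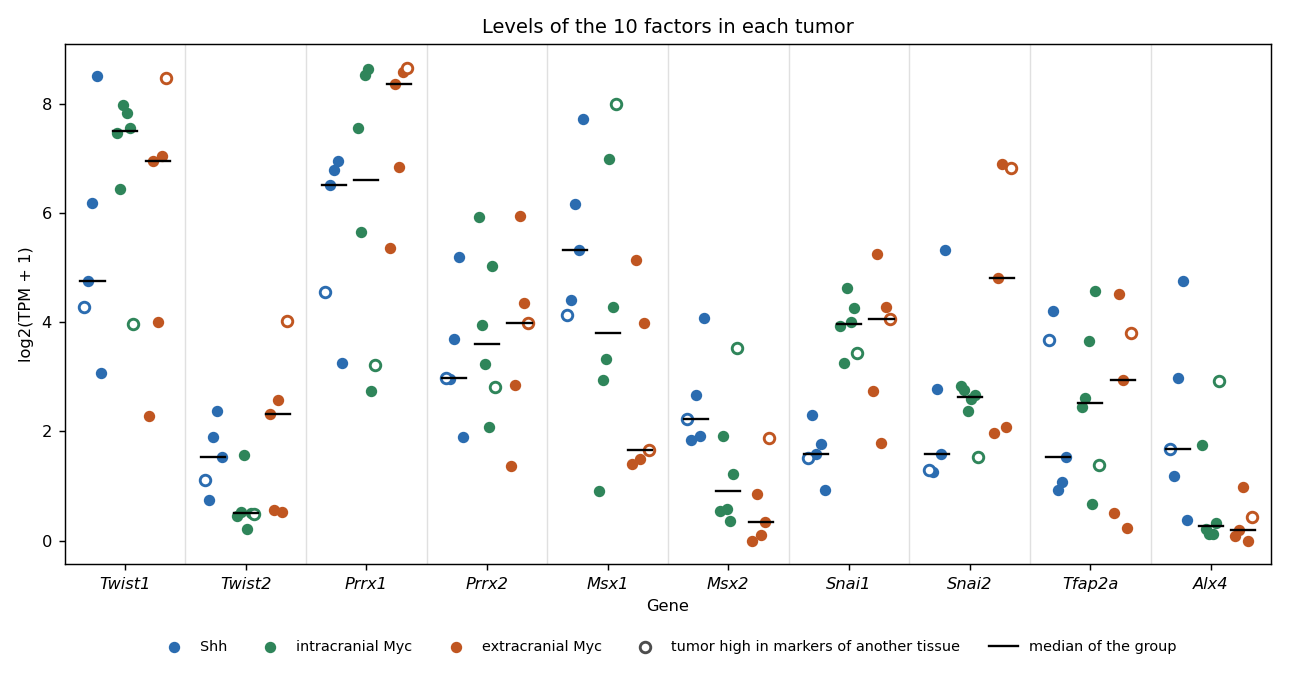
Level of each factor, as log2(TPM + 1), in every tumor, with Shh tumors in blue, intracranial Myc tumors in green and extracranial Myc tumors in orange. Bars are group medians and open circles are the 3 tumors high in markers of another tissue. All 6 intracranial Myc tumors lie above all 5 Shh tumors for Snai1, while the groups overlap for the other factors.

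Snai2 encodes Slug, the close relative of Snai1 that is expressed in migrating crest of the mouse. It stood at 1.46, 1.39, 5.84, 2.02 and 38.8 TPM in Shh tumors 1 to 5. It ran from 1.88 to 6.15 TPM in intracranial Myc tumors, with a median of 5.21 TPM. It stood at 2.94, 27.2, 118, 3.24 and 112 TPM in extracranial Myc tumors 1 to 5. The nose tumor and jaw tumor 5 thus had the highest Snai2 of all 16 tumors, Shh tumor 5 came next, and the groups overlapped. Markers of oral or skin epithelium, a tissue that also expresses Snai2, summed to 2355 TPM in jaw tumor 5 and to 5.81 TPM in the nose tumor. Sums over 14 skeletal muscle markers had a median of 188 TPM in extracranial and 24.9 TPM in intracranial Myc tumors. Over the 11 Myc tumors their log2 sums had r = 0.62 with Snai2 and 0.65 with Twist2. The part of either marker list in these levels was not tested.

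Snai2 had a log2 fold change of -1.91 ± 1.22 in Shh against Myc tumors (adjusted p = 0.236, edgeR). It was -3.76 (adjusted p = 0.0517, edgeR) without Shh tumor 5, and -1.31 without the nose tumor, the ends of the range when single tumors were left out. The direction turned to 0.52 against intracranial Myc tumors alone and to 0.71 among tumors induced at E6. Between Myc sites it was -3.41 ± 0.88 (intracranial minus extracranial, adjusted p = 0.345, unadjusted p = 0.00231, edgeR). In that comparison 0.00470% of 21261 genes passed edgeR's test and 12.3% had an unadjusted p under 0.05. Of the 10 factors 0 passed and 2 had an unadjusted p under 0.05, Snai2 and Twist2. DESeq2's Wald test called 2.15% of genes and 1 of the 10 factors, Snai2 (log2 fold change -3.39, adjusted p = 0.00471). Without intracranial Myc tumor 6 and extracranial Myc tumor 5 the Snai2 change between sites was -2.74 ± 0.93 (adjusted p = 0.459, edgeR).

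Twist1, the basic helix-loop-helix factor needed for closure of the cranial neural tube and for the mesenchyme of the skull sutures, was among the most abundant of the factors. Its levels in Shh tumors 1 to 5 were 18.5, 25.9, 71.5, 365 and 7.40 TPM. Intracranial Myc tumors had 14.6 to 252 TPM with a median of 181 TPM, and extracranial Myc tumors 1 to 5 had 3.86, 124, 15.1, 130 and 356 TPM. The highest value of all was in an Shh tumor and the lowest in the tumor of the back, so that the Shh range lay almost wholly within the Myc range. The log2 fold change in Shh against Myc tumors was -1.03 ± 0.94 (adjusted p = 0.414, edgeR). Without Shh tumor 4 it was -2.70 (adjusted p = 0.0529, edgeR), and without any other single tumor it lay between -1.16 and -0.73.

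Twist2 encodes the related factor Dermo1, known from dermal and craniofacial mesenchyme. It was low, at 1.15, 0.664, 2.72, 4.15 and 1.91 TPM in Shh tumors 1 to 5. In intracranial Myc tumors it ran from 0.164 to 1.95 TPM with a median of 0.413 TPM, and in extracranial Myc tumors 1 to 5 it was 4.01, 0.469, 4.97, 0.443 and 15.3 TPM. In 7 of 11 Myc tumors it lay below every Shh tumor, and in the nose tumor and jaw tumor 5 it lay above every Shh tumor. The counts behind these levels were low, with 11 to 93 reads in Shh tumors and 4 to 288 reads in Myc tumors. The median of Shh tumors was 4.30 times that of Myc tumors, while the edgeR log2 fold change, which weighs mean counts, was -0.78 ± 1.01 (adjusted p = 0.559) and was 0.20 ± 0.90 (adjusted p = 0.878) without the 3 tumors high in markers of other tissues. Between Myc sites the change was -2.93 ± 0.99 (intracranial minus extracranial, adjusted p = 0.348, edgeR), and -1.82 ± 0.97 (adjusted p = 0.545) without those tumors.

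Prrx1, a paired-type homeodomain factor of limb bud and craniofacial mesenchyme, had the highest level of the 10 factors in 10 of 16 tumors. It stood at 22.5, 90.4, 109, 123 and 8.48 TPM in Shh tumors 1 to 5. It ran from 5.65 to 395 TPM in intracranial Myc tumors with a median of 118 TPM, and stood at 40.1, 326, 114, 380 and 404 TPM in extracranial Myc tumors 1 to 5. In 6 of 11 Myc tumors it was above every Shh tumor, and in 2 intracranial Myc tumors, 5 and 6, it was below every Shh tumor. The log2 fold change was -2.03 ± 0.94 (adjusted p = 0.104, edgeR), while DESeq2's Wald test gave -2.02 (adjusted p = 0.034). Among the 7 tumors induced at E6, which hold all Shh tumors, the direction turned, to 1.04 (adjusted p = 0.544, edgeR).

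Prrx2, its paralog in the same tissues, was lower, with 6.85, 6.78, 11.9, 35.8 and 2.74 TPM in Shh tumors 1 to 5. Intracranial Myc tumors had 3.23 to 59.7 TPM with a median of 11.4 TPM, and extracranial Myc tumors 1 to 5 had 1.58, 6.22, 60.4, 19.3 and 14.8 TPM. All groups overlapped, and the log2 fold change in Shh against Myc tumors was -1.18 ± 0.82 (adjusted p = 0.272, edgeR). It was -2.05 without Shh tumor 4 (adjusted p = 0.0977, edgeR). Between Myc sites it was 0.08 ± 0.90 (adjusted p = 0.98, edgeR).

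Msx1 is a homeodomain target of BMP signaling at the neural plate border and in dental and facial mesenchyme, and mice without it lack teeth and have a cleft palate. It stood at 16.5, 20.2, 70.5, 39.0 and 211 TPM in Shh tumors 1 to 5. It ran from 0.879 to 253 TPM in intracranial Myc tumors, with a median of 13.7 TPM, and stood at 1.63, 34.1, 1.81, 14.9 and 2.17 TPM in extracranial Myc tumors 1 to 5. The median of Shh tumors was 4.29 times that of Myc tumors and 7 of 11 Myc tumors lay below every Shh tumor, but intracranial Myc tumor 6, which was high in choroid plexus markers, had the highest Msx1 of all. The log2 fold change was 0.13 ± 1.17 (adjusted p = 0.943, edgeR) and 1.38 ± 1.03 (adjusted p = 0.315) without the 3 tumors high in markers of other tissues.

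Msx2, the related factor of skull and tooth development, had 3.65, 2.61, 5.36, 2.77 and 15.8 TPM in Shh tumors 1 to 5. In intracranial Myc tumors it ran from 0.287 to 10.5 TPM with a median of 0.91 TPM. In extracranial Myc tumors 1 to 5 it stood at 0, 0.807, 0.0675, 0.274 and 2.70 TPM, where the tumor of the back had 0 counts and the nose tumor 2. In 8 of 11 Myc tumors Msx2 was below every Shh tumor, and intracranial Myc tumor 6 was again the highest of the Myc tumors. Over the 11 Myc tumors log2 macrophage marker sums had r = -0.75 with Msx1 and -0.61 with Msx2. Over all 16 tumors these were -0.68 and -0.74, and the part of macrophages in the Msx levels was not tested.

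Msx2 differed between Shh and Myc tumors by a log2 fold change of 1.11 ± 1.04 (adjusted p = 0.424, edgeR). Without the 3 tumors high in markers of other tissues it was 2.65 ± 0.94 (adjusted p = 0.0429, edgeR), and DESeq2's Wald test on all tumors gave 2.14 (adjusted p = 0.0229). Without the 6 tumors it was 2.56 ± 0.95 and did not pass (adjusted p = 0.0657, edgeR). Leaving out Shh tumor 5 alone took it to 0.38 (adjusted p = 0.823, edgeR), and leaving out intracranial Myc tumor 6 alone took it to 2.19 (adjusted p = 0.0559, edgeR). Against intracranial Myc tumors the change was 0.51 ± 1.14 (adjusted p = 0.772, edgeR). Against extracranial Myc tumors it was 2.48 ± 1.26 (adjusted p = 0.15, edgeR), and 3.94 ± 1.20 (adjusted p = 0.0287) without the 3 tumors, a fit in which 2 of 10 factors passed, Snai1 and Msx2, against 23.2% of genes.

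Alx4, an aristaless-like factor of frontonasal and skull mesenchyme, had 2.20, 1.27, 6.86, 26 and 0.298 TPM in Shh tumors 1 to 5. In intracranial Myc tumors it ran from 0.0839 to 6.61 TPM with a median of 0.199 TPM, and in extracranial Myc tumors 1 to 5 it stood at 0.0605, 0.138, 0.968, 0 and 0.341 TPM. In 7 of 11 Myc tumors it lay below every Shh tumor, and 3 and 0 reads stood behind the values of the back and mouth tumors. Intracranial Myc tumors 6 (6.61 TPM) and 1 (2.38 TPM) were the only Myc tumors above 1 TPM. Alx4 overlaps Ext2 on the opposite strand, which had 1232 to 18296 reads. Whether the counting used strand is not stated, and the part of Ext2 reads in the Alx4 counts was not tested.

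For Alx4, Shh against Myc tumors gave a log2 fold change of 2.24 ± 1.24 (adjusted p = 0.171, edgeR). Without Shh tumor 4, which had the most Alx4, it was 0.77 (adjusted p = 0.677, edgeR). It was 3.56 without intracranial Myc tumor 6 alone (adjusted p = 0.0184, edgeR) and 3.75 ± 1.24 without all 3 tumors high in markers of other tissues (adjusted p = 0.0319, edgeR). In that last fit 3 of 10 factors, Snai1, Msx2 and Alx4, passed, against 26.7% of 21502 genes. Without the 6 tumors 2 of 10 passed, Snai1 and Alx4 (4.75 ± 1.37, adjusted p = 0.0263, edgeR), against 23.4% of 21364 genes. Against intracranial Myc tumors the Alx4 change was 1.55 ± 1.37 (adjusted p = 0.408, edgeR), and against extracranial Myc tumors it was 4.15 ± 1.62 (adjusted p = 0.0662, edgeR).

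Tfap2a encodes AP-2 alpha, which specifies the neural plate border, the crest and surface ectoderm. It had 11.7, 17.3, 0.905, 1.10 and 1.89 TPM in Shh tumors 1 to 5. Intracranial Myc tumors had 0.595 to 22.7 TPM with a median of 4.78 TPM, and extracranial Myc tumors 1 to 5 had 0.428, 21.9, 6.68, 0.17 and 12.9 TPM. Each group thus held tumors above 10 TPM and tumors under 2 TPM. The log2 fold change was -0.80 ± 1.01 (adjusted p = 0.548, edgeR), and Gm26688, an antisense gene that overlaps Tfap2a, had at most 122 reads.

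**Figure D2:**
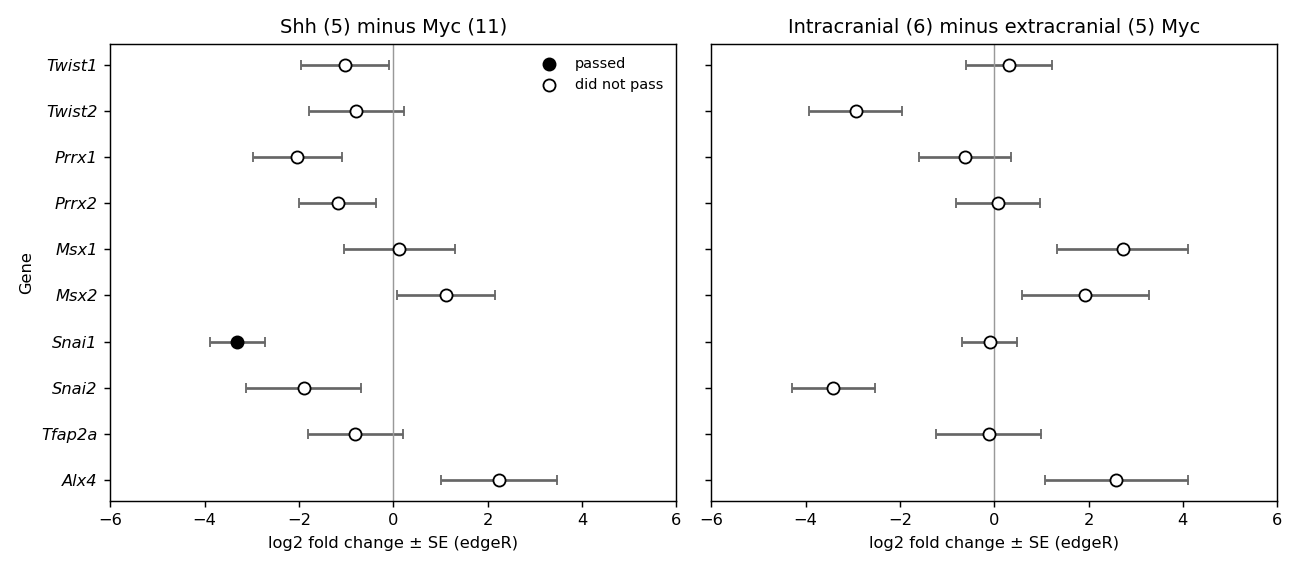
Log2 fold change of each factor with its SE from edgeR's quasi-likelihood test, on the left for 5 Shh minus 11 Myc tumors and on the right for 6 intracranial minus 5 extracranial Myc tumors. Filled points passed the threshold. Snai1 at -3.31 on the left is the only filled point, and Snai2 at -3.41 and Twist2 at -2.93 lie farthest from 0 on the right.

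DESeq2's Wald test called 3 of 10 factors between Shh and Myc tumors, namely Prrx1, Msx2 and Snai1, against 28.7% of genes. Against extracranial Myc tumors it called 4 of 10, namely Prrx1, Snai1, Snai2 and Alx4, against 27.1% of genes. In the edgeR fits described above, which took in all 16 tumors, Snai1 alone of these passed. In an edgeR fit of Shh and extracranial Myc tumors alone, Prrx1 (-2.35, adjusted p = 0.049) and Alx4 (4.18, adjusted p = 0.0487) passed as well, 3 of 10 factors against 26.2% of genes.

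The spread within groups was wide for most factors. Over the 11 Myc tumors the SD of log2(TPM + 1) was 2.33 for Msx1, 2.21 for Prrx1, 2.02 for Twist1 and 1.90 for Snai2, against a median SD of 0.58 for all genes whose mean count was 50 or more, and these values lay at the 98th, 97.3rd, 96.2nd and 95.2nd percentiles. Snai1 (0.95) was at the 73.6th percentile. The SD of Alx4 (0.92, at the 72.2nd percentile) is no sign of even levels, since the pseudocount of 1 compresses differences at levels of 0 to 6.61 TPM. In Shh tumors, Snai1 had the smallest SD of the 10, 0.50, at the 60.2nd percentile, while Twist1 reached 2.09, at the 98.5th percentile. In intracranial Myc tumors, Snai2 and Snai1 had SDs of 0.48 and 0.51 and ratios of the highest to the lowest TPM of 3.27 and 2.79. Twist2 had a similar SD (0.47) at levels near the pseudocount, but a ratio of 11.9, while Prrx1 and Msx1 had SDs of 2.62 and 2.65.

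The 10 factors summed to between 60.2 TPM in the tumor of the back and 936 TPM in jaw tumor 5. The tumor of the back, the only extracranial Myc tumor outside the head, was the lowest of the 5 extracranial tumors for 6 of 10 factors and of all 16 tumors for 3 (Twist1, Prrx2 and Msx2). It was also the only extracranial tumor induced at E6, the oldest at 210 days and the highest in macrophage markers (15614 TPM), so that site, day, age and cell content cannot be told apart. Its Prrx1, 40.1 TPM, gave 66.6% of the sum of the 10 factors. The 4 tumors of the face had 114 to 404 TPM of Prrx1 and 15.1 to 356 TPM of Twist1.

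In Shh tumor 5 and intracranial Myc tumor 6, Msx1 made up 72.9% and 80.9% of the sum of the factors. Both had Twist1 and Prrx1 at or below 14.6 TPM and both were the highest of their group for Msx1 and Msx2. They differed in Snai2 (38.8 against 1.88 TPM), Snai1 (0.889 against 9.85 TPM) and Alx4 (0.298 against 6.61 TPM). Choroid plexus markers summed to 3.79 TPM in Shh tumor 5, the lowest of the Shh tumors, and to 204886 TPM in intracranial Myc tumor 6. Shh tumor 4 had the most Twist1 (365 TPM) and Alx4 (26 TPM) of all 16 tumors. In the other Shh tumors, 1 to 3, Prrx1 was the leading factor.

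Between paralogs, compared in TPM, the first member was usually the more abundant. Twist1 exceeded Twist2 in 15 of 16 tumors, with a median ratio of 63.6 and the back tumor as the exception (0.964). Prrx1 exceeded Prrx2 in 15 of 16, with a median ratio of 6.31 and intracranial Myc tumor 5 as the exception (0.178). Msx1 exceeded Msx2 in 15 of 16, with jaw tumor 5 as the exception (0.806).

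Snai1 exceeded Snai2 in 12 of 16 tumors. The exceptions were Shh tumors 3 and 5, the nose tumor and jaw tumor 5, and all 6 intracranial Myc tumors had more Snai1 than Snai2, by 1.46 to 5.62 times. The ratio of Snai1 to Snai2 was 0.0229 in Shh tumor 5 and 0.0206 in the nose tumor.

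**Figure D3:**
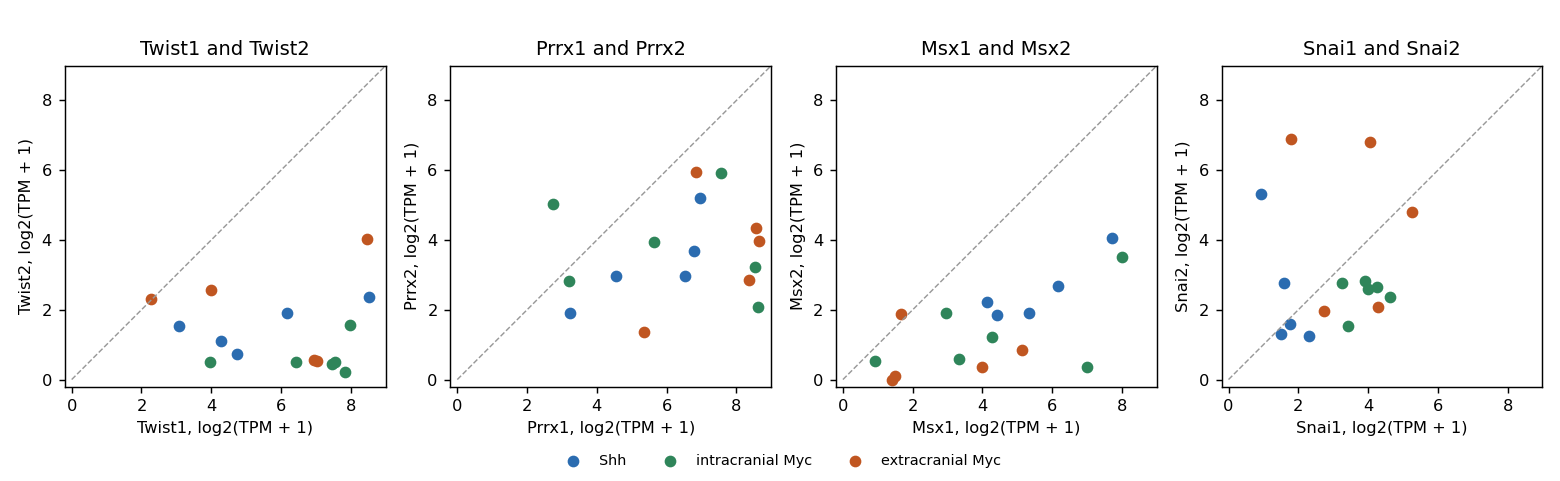
Level of each second paralog against the first, as log2(TPM + 1), in the 16 tumors colored by group, with the line of equal levels dashed. Points below the line have more of the first paralog, which holds in 15 of 16 tumors for Twist, Prrx and Msx and in 12 of 16 for Snai.

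The factors did not move as a block. Over the 11 Myc tumors the 45 pairs of factors had a median Pearson's r of 0.03 for log2(TPM + 1), from -0.58 (Twist2 with Msx1) to 0.73 (Twist1 with Snai1), and 22 of the 45 were below 0. Twist2 and Snai2, both high in the nose tumor and jaw tumor 5, had r = 0.68, and a Spearman's rho of 0.35. Msx2 and Alx4 had r = 0.61, which was -0.11 without intracranial Myc tumor 6. Over all 16 tumors the highest pair by Pearson's r was Msx1 with Msx2 (r = 0.65). Without intracranial Myc tumor 6 it was 0.56, below Twist1 with Snai1 (0.62). By Spearman's rho over all 16 tumors Twist1 with Prrx1 was higher (0.65 against 0.63). Over the 11 Myc tumors Msx1 with Msx2 had r = 0.48, which was -0.015 without intracranial Myc tumor 6. These values describe few tumors that differ in cell content, and no batch of library preparation is given.

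**Figure D4:**
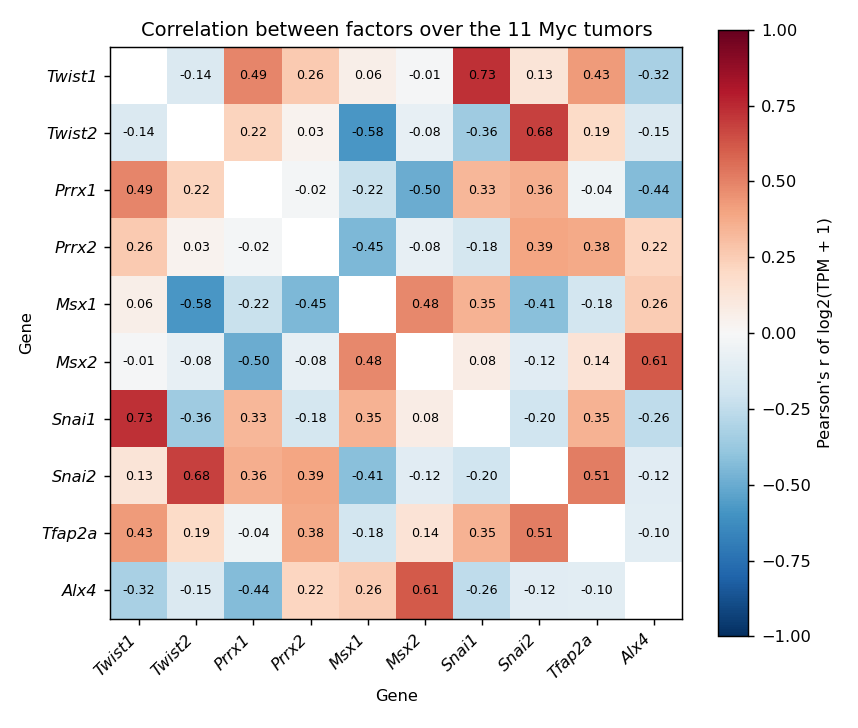
Pearson's r of log2(TPM + 1) between each pair of factors over the 11 Myc tumors, from blue (negative) to red (positive). The highest value is 0.73 for Twist1 with Snai1 and the lowest -0.58 for Twist2 with Msx1.

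Among genes whose mean count in the Myc tumors was 50 or more, those with the pattern most like each factor were named by Pearson's r over the 11 Myc tumors. For Prrx1 the most similar gene was Gorab (r = 0.94), the nearest coding gene on that side, which lies 71197 bases away at chr1:163384908-163403669 with no coding gene between them. Gorab was also the most similar to Prrx1 over all 16 tumors (r = 0.89), where its level ran from 10.2 to 222 TPM. The next for Prrx1 was Cav1, which encodes caveolin-1 (r = 0.92).

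For Snai1 the most similar genes were Rasl11a (0.93), Usp28 (0.93) and Tmed3 (0.92). For Twist1 they were Lmo7, Zdhhc15 and Fam131b (0.95, 0.93 and 0.93), and for Snai2 Tbx3os2, Vdr, the vitamin D receptor, and Nme8 (0.95, 0.92 and 0.91). For Twist2 they included Dpt, the dermal matrix gene dermatopontin (0.88), after Abcd2 and Sdr42e1 (0.88 and 0.88). For Msx2 they were Ripk4, Tmprss11a and Chd5 (0.96, 0.95 and 0.94), for Alx4 Ift122, Itih2 and Tspoap1 (0.94, 0.94 and 0.93), and for Msx1 Fbxl4, Zfp189 and Gnl3l (0.94, 0.93 and 0.93). For Prrx2 they were Brf1, Tedc2 and Tmem30b (0.90, 0.87 and 0.84), for Tfap2a Kif26b, B4galt3 and Mmp10 (0.89, 0.89 and 0.88), and Rpf1 was the third for Prrx1 (0.91). These ranks among 14269 genes rest on 11 tumors, and by rank correlation 7 of these 30 genes were again among the first 3.

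The genes around the factors were taken by lists that were also chosen with earlier results of these data known. Of 26 genes of mesenchymal structure, 18 were lower in Shh tumors and 1 was higher (edgeR's quasi-likelihood test), or 73.1% against 26% of all genes tested, with a median log2 fold change of -2.51 against -0.15 for all genes. Postn (log2 fold change by edgeR -7.99 ± 2.06, adjusted p = 0.00712), Lum (-6.43 ± 1.54, adjusted p = 0.00443), Vim (-2.53 ± 0.70, adjusted p = 0.0109) and Pdgfra (-2.50 ± 0.77, adjusted p = 0.0205) were lower, and Cdh2, which encodes N-cadherin, was the gene that was higher (2.34 ± 0.66, adjusted p = 0.0122). The median of the 10 factors was -0.92. Among the lists that follow, the median was -3.69 for epithelial genes, -2.08 for facial and limb patterning, -0.65 for BMP, FGF and TGF-beta signaling, 0.34 for other EMT regulators, 2.18 for crest specification and 4.77 for neural genes, so that a median below that of all genes was not particular to mesenchymal structure. This list holds collagens and matrix genes that the fibroblast markers also hold, and their part in the result was not tested.

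Of 11 other EMT regulators tested, 3 were lower in Shh tumors and 0 higher (27.3%, close to the 26% of all genes), among them, by edgeR, Snai3 (-5.71 ± 1.45, adjusted p = 0.00654) and Sim2 (-8.44 ± 3.11, adjusted p = 0.0468). Zeb1 and Zeb2, repressors of E-cadherin like the Snail genes, did not pass (0.77 ± 0.35, adjusted p = 0.096, and 0.28 ± 0.40, adjusted p = 0.6), although Zeb1 was higher in Shh than in intracranial Myc tumors (1.31 ± 0.33, adjusted p = 0.00802, edgeR). Of 28 epithelial genes, 1 was higher by edgeR (Epcam, 2.52 ± 0.88, adjusted p = 0.0374) and 6 lower, among them Cldn4 (-8.88 ± 2.84, adjusted p = 0.0241) and Krt8 (-8.00 ± 2.13, adjusted p = 0.00878). These 7 of 28 genes are 25%, against 26% of all genes. Cdh1, which encodes E-cadherin and is the classic target of Snai1, did not pass (2.37 ± 1.04, adjusted p = 0.0908, edgeR).

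Of 20 other genes of neural crest specification, 6 were higher in Shh tumors and 1 lower (35%, against 26% of all genes). Mycn (7.94 ± 0.81, adjusted p = 7.67e-06) and Tfap2e (5.06 ± 1.06, adjusted p = 0.00174) were higher and Ets1, an early cranial crest factor, was lower (-1.97 ± 0.41, adjusted p = 0.00174, edgeR). Sox9 (0.12 ± 0.77, adjusted p = 0.918) and Sox10 (3.38 ± 1.45, adjusted p = 0.0833), factors of early and migrating crest, did not pass edgeR's test, although Sox10 was higher in Shh than in extracranial Myc tumors (7.20 ± 1.99, adjusted p = 0.0137, edgeR). Sox10 was also counted among the Schwann cell markers, which summed to 4959 TPM in Shh tumor 1.

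Of 41 other patterning genes of facial and limb mesenchyme, 5 were higher and 12 lower in Shh tumors (41.5%, against 26% of all genes). In edgeR's test Alx1, a close relative of Alx4, was lower (-7.67 ± 2.35, adjusted p = 0.0195), as was Osr1 (-6.76 ± 1.26, adjusted p = 0.000753), a factor of connective tissue and kidney precursors. Msx3, the Msx gene that is restricted to the dorsal neural tube, was higher (8.11 ± 0.95, adjusted p = 2.14e-05), as was Hand2 (3.94 ± 1.32, adjusted p = 0.0302, edgeR). Dlx5, a factor of the jaw primordia, did not pass edgeR's test (0.60 ± 1.45, adjusted p = 0.765).

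Of 38 genes of BMP, FGF and TGF-beta signaling, the pathways upstream of Msx and Twist genes, 6 were higher and 6 lower (31.6%, against 26% of all genes). Fgf8 (8.09 ± 1.16, adjusted p = 9.86e-05) and the BMP receptor gene Bmpr1b (4.18 ± 0.99, adjusted p = 0.00418) were higher, and Grem1, a BMP antagonist (-6.15 ± 2.06, adjusted p = 0.0303), and the TGF-beta receptor gene Tgfbr2 (-2.96 ± 0.50, adjusted p = 0.000346, edgeR) were lower. Of 22 neural genes, 15 were higher in Shh tumors and 0 lower (68.2%), led by Sox1 (11.03 ± 0.80, adjusted p = 4.2e-07) and Neurog2 (9.80 ± 0.94, adjusted p = 4.72e-06, edgeR). Between Myc sites, 0 genes of any of these lists passed, where the share with an unadjusted p under 0.05 ran from 7.89% (3 of 38) for BMP, FGF and TGF-beta signaling to 32.1% (9 of 28) for epithelial genes, against 12.3% of all genes.

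**Figure D5:**
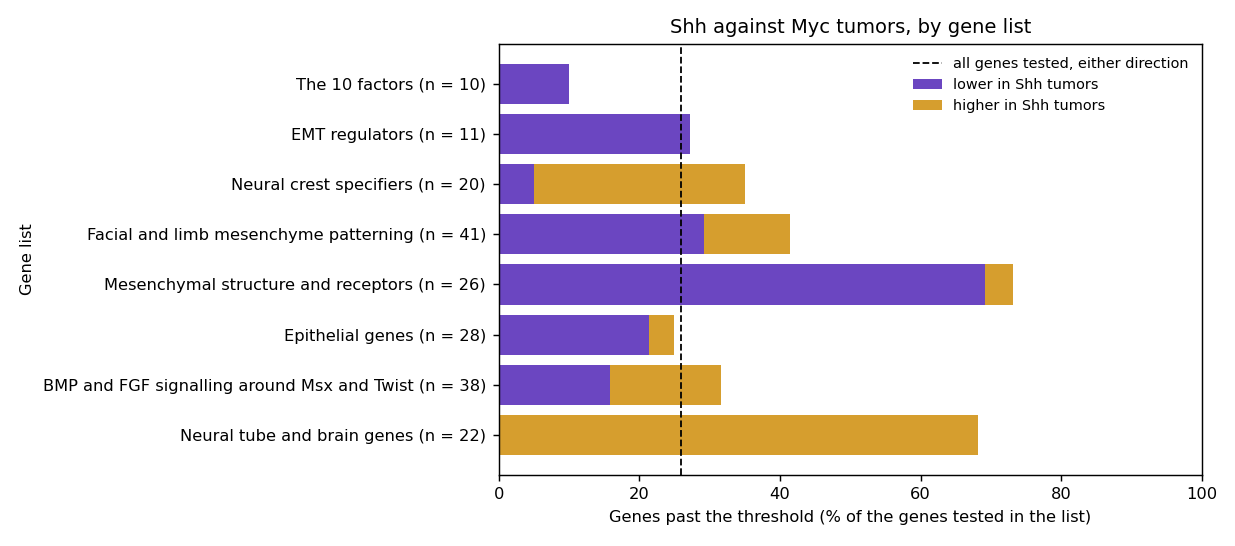
Percentage of the tested genes of each list that passed the threshold between Shh and Myc tumors, split into genes lower (purple) and higher (yellow) in Shh tumors, with the share of all genes tested (26%) as a dashed line. The 10 factors reach 10%, all lower, against 18 of 26 genes lower and 1 higher for mesenchymal structure.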

How the data were processed

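Bulk tumors were macrodissected, and polyadenylated RNA was sequenced as stranded libraries. The authors mapped reads to mm10 with STAR 2.5.3a in their own pipeline and deposited raw counts per gene, whole numbers without normalization, for 16 tumors. The authors also deposited TPM values, scaled by gene length and library. The gene annotation is not given in the sources used here. Positions came from GENCODE (GRCm38) and promoter sequences from RefSeq.

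Genes with at least 1 read in some tumor (21854, or 21261 among Myc tumors) were tested genome-wide by the quasi-likelihood method of edgeR 4.0.16 after TMM normalization, in R 4.3.3, and p-values were adjusted over all of them (Benjamini-Hochberg). Shh and Myc tumors were fitted as 2 groups of all 16 tumors, the Myc sites on the 11 Myc tumors alone, and Shh against each Myc site in a fit with 3 groups. The SE of an edgeR change was derived as the absolute log2 fold change divided by the square root of the F statistic. Levels are TPM, and log2(TPM + 1) was used for spread and correlation. The code was tested on simulated data. DESeq2 1.42.0 and limma 3.58.1 were alternatives. Figures used matplotlib 3.10.9 in Python 3.11.15.

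The members and lists were chosen with earlier results of these data known. Besides the 10 factors, the text names the 2 highest and 2 lowest changes past the threshold in each list among genes with a mean count of 50 or more, 9 genes named whatever their values, Smarcb1 as the deleted gene, and the 3 genes most correlated with each factor. Ttr was named after its values were seen.

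Total counts of 17889968 to 110177889 set the precision, and 3 reads, the floor used, correspond to 0.0272 to 0.168 CPM. Reads carry no molecular identifiers. Each mouse gave 1 tumor, so p-values measure the spread between mice. No batch is given in the labels, and mouse names follow 2 schemes, numbered or R26P, which were compared in its place.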

Additional observations from a re-analysis of the deposited data

Results flagged for a closer look

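Within a group of 5 or 6 tumors, a tumor is named here when its gap to the nearest other tumor took up more of the range of the group than Dixon's 95% critical value allows, which chance gives in about 1 of 20 groups. Of 30 sets of values (10 factors in 3 groups), 2 held such a tumor. Twist2 was high in intracranial Myc tumor 3, at 1.56 on the log2(TPM + 1) scale (1.95 TPM), where the other 5 intracranial Myc tumors had at most 0.428 TPM. Snai2 was low in intracranial Myc tumor 6, at 1.53 on that scale (1.88 TPM), the tumor high in choroid plexus markers.

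Of 18 sets of summed markers (6 lists in 3 groups), 4 held such a tumor. Only these 6 of the marker lists were put through this rule, and others, such as the Schwann cell list, were not. The choroid plexus, epithelial and macrophage lists had also served to choose tumors after the data were seen. The count of 4 therefore cannot be compared with the chance rate given above, and it only describes these sets. On the scale of log2(summed TPM + 1), choroid plexus markers were at 17.64 in intracranial Myc tumor 6 and at 12.19 in Shh tumor 1. Epithelial markers of mouth or skin were at 11.20 in extracranial Myc tumor 5, from the jaw, and macrophage and microglia markers at 13.93 in extracranial Myc tumor 1, from the back. Jaw tumor 5 was also the highest of the extracranial tumors for 4 of the 10 factors.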

How the results depend on the processing

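Snai1 stayed lower in Shh than in Myc tumors in all 29 alternatives (log2 fold change -3.69 to -2.17) and passed the threshold in all but the 5 R26P tumors alone. The number of factors past the threshold between Shh and Myc tumors was 1 in edgeR, where 5689 of 21854 genes passed. It went to 3 with DESeq2's Wald test (6267 of 21854 genes). It was 2 with limma on log2(TPM + 1) (5406 of 21841 genes) and 3 with limma on log2(TPM + 0.1) (6575 of 21841 genes). In R26P mice alone it was 0, where 0 of 20347 genes passed. It was 3 without the 3 tumors high in markers of other tissues (5737 of 21502 genes). Without 6 tumors it was 2 (5001 of 21364 genes), and both of these alternatives were chosen after seeing the data. It was 1 to 2 when single tumors were left out (4766 to 6649 genes), where Alx4 joined without intracranial Myc tumor 6. Against extracranial Myc tumors it went from 1 (5466 of 21854 genes) to 4 with DESeq2 (5912 of 21854 genes). In limma at these pseudocounts it was 2 and 3 (5067 and 6084 of 21841 genes). With the name scheme as a covariate it was 2 (Snai2 added, 5119 of 21854 genes). The nose tumor as intracranial also gave 2 (Alx4 added, 5375 of 21854 genes). A fit of the 2 groups alone gave 3 (Prrx1 and Alx4 added, 5624 of 21458 genes). Without the tumors high in markers of other tissues it was 2 (4987 of 21502 genes). When single tumors were left out it was 1 to 2, with 4524 to 5533 genes (Snai2 without Shh tumor 5, the back tumor or the mouth tumor, Alx4 without the nose tumor). Against intracranial Myc tumors it was 1 in every alternative, where 4076 to 6145 genes passed. Between Myc sites DESeq2 alone called any factor, 1 (Snai2), where 457 of 21261 genes passed. The cause of these changes was not tested. The limma fits moved the median log2 fold change of all genes from -0.15 to 0.20 and 0.35 for Shh against Myc tumors.

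Changes of sign were met only among factors that did not pass. For Shh against Myc tumors, Twist2 (-0.78) turned to 0.28 and 0.74 in limma with pseudocounts of 1 and 0.1, to 1.22 in intracranial tumors alone, to 0.20 without the 3 tumors high in markers of other tissues and 0.30 without the 6, and ranged from -1.18 to 0.14 when single tumors were left out. Msx1 (0.13) turned to -0.022 with the name scheme, -0.29 in R26P mice and -0.58 in intracranial tumors, and ranged from -0.82 to 1.26. Among tumors induced at E6, Prrx1 was 1.04 and Snai2 0.71. Snai2 was 0.52 in intracranial tumors, and Tfap2a was 0.040 in numbered mice. Between Myc sites, Twist1 (0.32) was -0.17 with the nose tumor as intracranial and -0.21 in tumors induced at E8, where Prrx2 was -0.082. When single tumors were left out, Prrx2 ranged from -0.60 to 0.97, Snai1 from -0.38 to 0.51 and Tfap2a from -0.82 to 0.67. In limma at these pseudocounts Snai1 was 0.30 and 0.37 and Tfap2a 0.16 and 0.52. With the day of tamoxifen as a covariate Snai1 was 0.030, and without the tumors high in markers of other tissues Tfap2a was 0.30. For Shh against intracranial Myc tumors, Msx1 (-0.58) was 1.14 and 1.33 in limma and 0.96 without the tumors high in markers of other tissues, and Snai2 (0.52) was -0.24 with the name scheme, -0.015 and -0.16 in limma and -1.56 with the nose tumor as intracranial. When single tumors were left out, Msx1 ranged from -1.52 to 0.71, Msx2 from -0.22 to 1.94 and Snai2 from -1.34 to 0.80. For Shh against extracranial Myc tumors, Twist1 was 0.25 without the tumors high in markers of other tissues and Tfap2a 0.17 in limma with a pseudocount of 0.1. Of the 30 genes most like the factors, 7 remained by rank correlation and 4 over all 16 tumors.

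No paired analysis was possible because no mouse contributed tumors to more than 1 group and no label pairs them. Low counts limit Twist2, Msx2 and Alx4. Msx2 and Alx4 each had at most 3 reads in 2 extracranial Myc tumors, and Twist2 had as few as 4 reads in intracranial Myc tumors. A group of 5 Shh tumors, with SEs near 1 on the log2 scale, limits most factors.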
